A study of Rattus norvegicus with 6 samples.

Results

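Aminoacyl-tRNA synthetases are the enzymes that join each amino acid to its transfer RNA, and they were examined in RNA sequencing libraries of rat H9C2 cells in which the RNA-binding protein PUM2 had been reduced. The genes were taken from the deposited count table as the protein-coding rows whose description holds the words tRNA synthetase. That rule found 42 of the 19825 listed genes: 19 enzymes of the cytosol, 2 genes that serve both compartments (Gars and Kars), 16 enzymes of mitochondria, 4 scaffold or domain proteins (Aimp1, Aimp2, Aarsd1 and Prorsd1) and Ears2l1, a copy of Ears2 that stands in no compartment list. All 42 passed the filter on low counts. Each group had 3 libraries: H9C2 cells given a small interfering RNA that targets PUM2 by transfection (libraries siPUM2 1, 2 and 3), and control cells for which the labels give an empty vector transfection (libraries NC 1, 2 and 3). By that wording the groups also differ in the kind of nucleic acid transfected, and the labels name no control small interfering RNA. H9C2 is a myoblast line from embryonic rat heart, and the labels call the cells cardiomyocytes.

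The cytosol and the mitochondrion each run their own protein synthesis, and in animals most amino acids have a separate nuclear gene for the enzyme of each compartment. In the cytosol, several synthetases form a large complex held together by the scaffold proteins AIMP1, AIMP2 and EEF1E1 (also called AIMP3). Uncharged transfer RNA activates the kinase GCN2, whose signal raises the transcription factor ATF4, and many cytosolic synthetase genes are known ATF4 targets. PUM2 is a Pumilio protein; such proteins recognise a short RNA element, mostly in the untranslated end of a message, and usually repress that message.

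The libraries held 27704702 to 29278049 counts in siPUM2 and 27997107 to 30579237 counts in NC. Pum2 itself was at 127, 126 and 120 CPM (counts scaled to a common library total with edgeR's TMM factors) in siPUM2 1, 2 and 3, against 223, 228 and 225 CPM in NC 1, 2 and 3, a log2 fold change of -0.86 ± 0.0279 (SE). The share of nuclear ribosomal RNA was 0.102% for siPUM2 3 and 0.0275% and 0.0342% for siPUM2 1 and 2, against 0.0354% to 0.051% for NC, so siPUM2 3 stood apart in that respect. Of 12 cardiomyocyte markers 5 passed the filter; the defining genes Myh7, Tnni3, Actn2, Ryr2, Myl2 and Myl7 had at most 5 counts in any library, whereas cardiac troponin Tnnt2 had 12264 to 14303 counts in siPUM2 and 7649 to 9954 in NC. The summed level of the 11 listed cardiomyocyte markers was 520 to 572 CPM in siPUM2 and 358 to 407 CPM in NC, and that of 7 fibroblast markers 8935 to 9269 CPM in siPUM2 and 9335 to 9525 CPM in NC, nearly all of it Col1a1 and Thy1, while Pdgfra, Dcn and Lum had at most 6 counts in any library. Within the fibroblast list the directions differed. Thy1 was higher, at 24202 to 26106 counts in siPUM2 and 20103 to 21811 in NC. Col1a1 was lower, at 216514 to 233114 counts in siPUM2 and 233701 to 260777 in NC. Postn was also lower, at 1132 to 1220 counts in siPUM2 and 1773 to 1970 in NC. The part of these shifts in the results below was not tested. The 3 listed macrophage markers of 5 summed to 38.7 to 40.6 CPM in siPUM2 and 36.8 to 37.7 CPM in NC. Nearly all of that was Cd14 (1044 to 1148 counts in siPUM2 and 1007 to 1110 in NC). Cd68 and Csf1r had at most 30 counts in any library. The 5 endothelial markers summed to 2.17 to 2.63 CPM in siPUM2 and 2.25 to 2.39 CPM in NC. Among 7 skeletal myoblast markers, 5 of them listed, the sum was 119 to 130 CPM in siPUM2 and 127 to 134 CPM in NC. Myod1, a defining gene of skeletal myoblasts, had 2147 to 2543 counts in siPUM2 and 2329 to 2481 in NC. The differentiation markers Myog and Myh3 were lower without overlap. Myog had 256 to 272 counts in siPUM2 and 445 to 736 in NC, and Myh3 20 to 27 in siPUM2 and 39 to 61 in NC. Des, of the same list, went the other way without overlap, with 867 to 908 counts in siPUM2 and 797 to 851 in NC. Chrna1 had at most 13 counts in any library. Their part in the results was not tested either. Whether the 3 libraries of a group are separate cultures is not stated in the labels; the p-values then reflect only the spread among these libraries, and that spread may be technical.

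Promoter sequences were looked at first, because the known ATF4 targets among the synthetases carry a composite element, TGATGNAA on either strand, to which ATF4 binds with a C/EBP partner. RefSeq promoters (assembly GRCr8, 250 bases before to 50 bases after the annotated start) were matched for 37 of the 42 genes. The element was present in 7 of them, 18.9%, against 3.35% of the 21851 promoters of protein-coding genes. All 7 belonged to the 17 cytosolic enzymes with a sequence, while 0 of 15 mitochondrial enzymes held it. The sites of 6 genes are shown as 30-base windows on the strand of the gene, with the element in capitals, so that the genes that fell can be set beside those that were not called.
Cars: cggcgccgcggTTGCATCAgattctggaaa
Tars1: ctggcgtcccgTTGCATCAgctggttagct
Yars1: cggagctacgagctcagcTGATGCAAcctg
Mars1: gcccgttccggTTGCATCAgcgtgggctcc
Iars1: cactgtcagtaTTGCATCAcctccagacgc
Nars1: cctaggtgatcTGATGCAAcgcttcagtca

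In GRCr8 these windows lie at chr1:208225334-208225363 (Cars, minus strand), chr2:62114811-62114840 (Tars1, minus), chr5:146820183-146820212 (Yars1, plus), chr7:65023752-65023781 (Mars1, minus), chr17:15193658-15193687 (Iars1, minus) and chr18:60275778-60275807 (Nars1, minus). Counted from the annotated start, the element begins at base 18 in Cars and 39 in Yars1, inside the transcribed part. It begins at -27 in Tars1, -24 in Iars1, -17 in Mars1 and -14 in Nars1. Each of the 6 windows has TGATGCAA or its reverse complement, a form present in 0.728% of protein-coding promoters. A match describes these letters and does not show that ATF4 binds there.

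The element occurred among genes that fell and genes that were not called. It was found in 4 of the 9 cytosolic enzymes called lower that had a sequence (Cars, Tars1, Yars1 and Mars1) and in 3 of the 8 not called, Iars1 and Nars1 among them. Other letters common near start sites were also frequent. The E-box CACGTG, the binding site of MYC and related factors, was in 6 of the 37 promoters (16.2%, against 7.02% of protein-coding promoters), among them Tars1, Farsb, Vars1, Iars1 and Ears2. The ETS-type site CCGGAAGT, read on both strands, was in 11 of 37 (29.7%, against 4.77%), among them Hars1 and its mitochondrial counterpart Hars2. Overlap between matches of different motifs was not examined, and the shares were not matched for base composition.

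About as many cytosolic synthetases fell in siPUM2 as were not called, and the sizes were small. Of the 19 enzymes 10 fell at an adjusted p under 0.05, 0 rose and 9 did not pass (edgeR quasi-likelihood, p adjusted by Benjamini-Hochberg across the whole set of genes tested). Over the 12985 genes tested, 28.4% were called, 13.3% as lower and 15.1% as higher. Among the 6914 genes within the CPM range of the cytosolic enzymes, where calls are easier to make, 18.2% were called lower and 20.5% higher. That range ran from 17.0 CPM, set by Tars3 alone, to 329 CPM. The next lowest enzyme, Farsb, was at 50.6 CPM and the median enzyme at 114 CPM. The shares in this range, here and below, are therefore not closely matched to the level of most of the enzymes. The median log2 fold change of the 19 was -0.11, against 0.00106 over all genes tested, and 12 of the 19 had an unadjusted p under 0.05, all of them lower, as had 4977 of the 12985 genes in either direction. Since bulk RNA was measured, fewer cells of a type and less RNA per cell cannot be told apart.

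**Figure D1:**
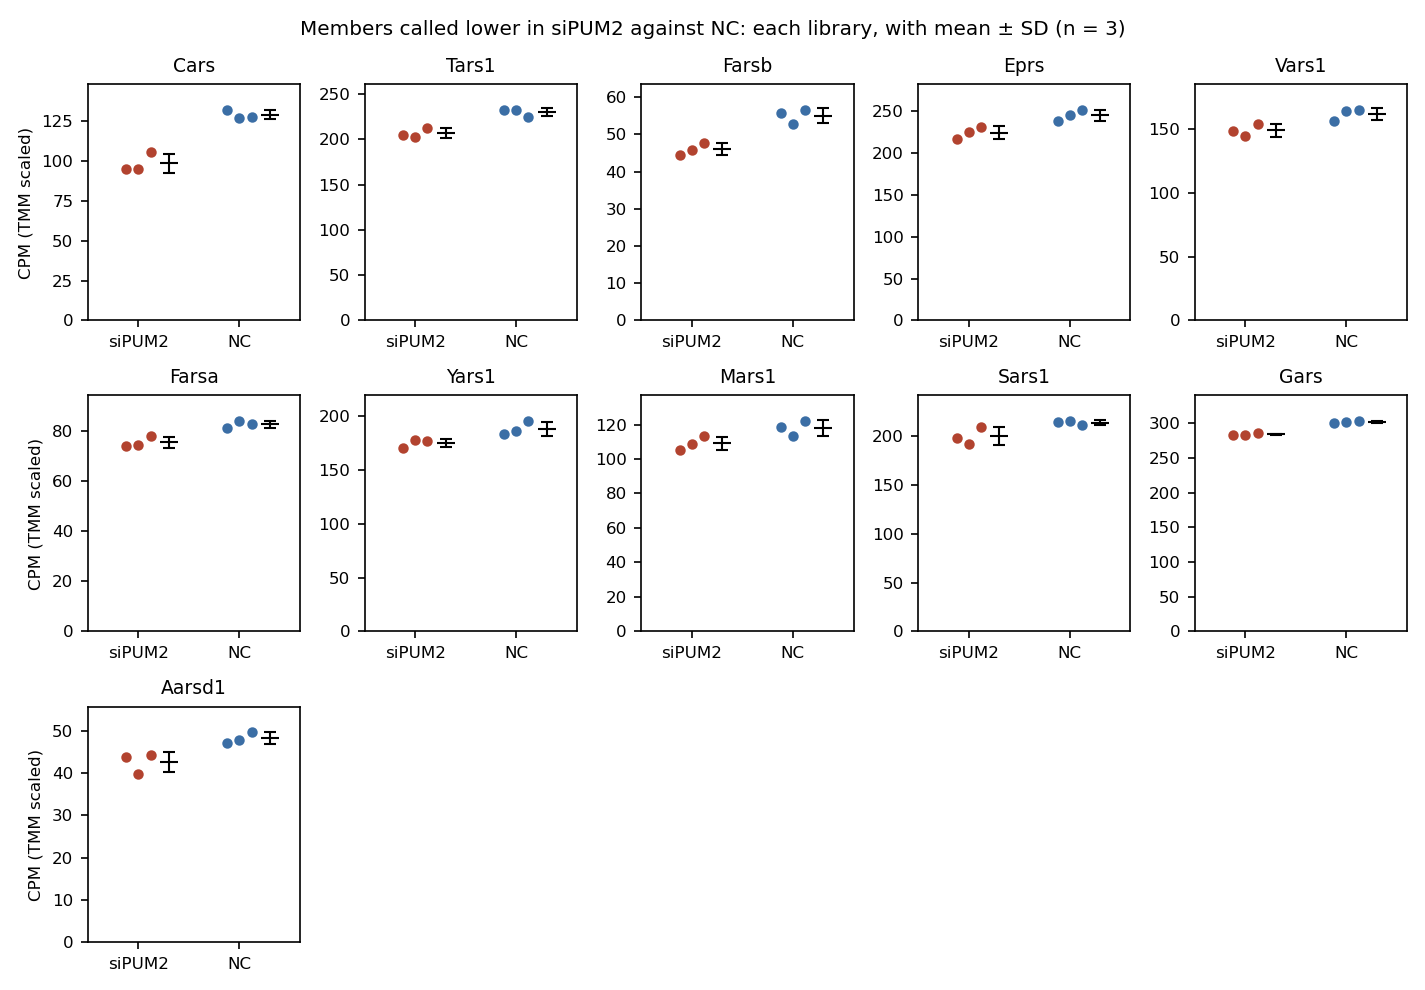
CPM (TMM scaled) of 11 members called at an adjusted p under 0.05, in siPUM2 and NC; each point is a library and the bars give mean ± SD (n = 3 each). In all 11 panels the siPUM2 points lie below the NC points, with Cars at 95.0 to 105 CPM against 127 to 132 CPM.

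Cars, which charges cysteine, fell most among the cytosolic enzymes. It was at 95.0, 95.2 and 105 CPM in siPUM2 1, 2 and 3, against 132, 127 and 128 CPM in NC 1, 2 and 3. The siPUM2 libraries all lay below NC, and siPUM2 3 was the nearest to it. The mean was 98.5 ± 5.87 CPM in siPUM2 and 129 ± 2.76 CPM in NC (SD, n = 3 each), 1.31-fold lower, and the log2 fold change was -0.39 ± 0.0336 (SE; adjusted p = 6.57e-10, edgeR).

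Both subunits of the phenylalanine enzyme, a tetramer of alpha and beta chains, fell. Farsb, the beta chain that carries the editing site, was at 44.5, 46.0 and 47.8 CPM in siPUM2, against 55.7, 52.9 and 56.6 CPM in NC (log2 fold change -0.26 ± 0.0474, adjusted p = 0.000125, edgeR). Farsa, the catalytic alpha chain, was at 74.2, 74.6 and 78.0 CPM in siPUM2, against 81.4, 84.3 and 82.9 CPM in NC (-0.13 ± 0.0329, adjusted p = 0.00282, edgeR). The groups did not overlap for either chain. Per length, Farsa averaged 21.8 FPKM in siPUM2 and 24.0 FPKM in NC, and Farsb 17.4 FPKM in siPUM2 and 20.9 FPKM in NC (the authors' values, which are scaled by gene length and library size).

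Tars1, the threonine enzyme, was at 205, 203 and 213 CPM in siPUM2, against 233, 233 and 225 CPM in NC. All siPUM2 libraries were below all NC libraries, with a log2 fold change of -0.15 ± 0.0270 (adjusted p = 7.45e-05, edgeR). Its close paralogue Tars3, at a much lower level (16.1, 17.3 and 15.5 CPM in siPUM2, against 17.8, 18.6 and 16.9 CPM in NC), had a log2 fold change of -0.12 with an interval of -0.26 to 0.02 and was not called. The groups overlapped for Tars3.

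Eprs joins glutamate and proline to their transfer RNAs in 1 fused protein. It was at 216, 225 and 231 CPM in siPUM2, against 238, 245 and 251 CPM in NC (log2 fold change -0.13 ± 0.0284, adjusted p = 0.000984, edgeR). Vars1, the valine enzyme, was at 149, 145 and 154 CPM in siPUM2, against 157, 164 and 165 CPM in NC (-0.12 ± 0.0294, adjusted p = 0.00247, edgeR). In both, every siPUM2 value lay under the lowest NC value.

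Yars1, the tyrosine enzyme, was at 170, 177 and 177 CPM in siPUM2, against 184, 186 and 196 CPM in NC, and the groups did not overlap (log2 fold change -0.11 ± 0.0285, adjusted p = 0.00484, edgeR).

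The calls for the methionine and serine enzymes were the least secure. Mars1, which also charges the initiator transfer RNA, was at 105, 109 and 113 CPM in siPUM2, against 119, 113 and 122 CPM in NC, a log2 fold change of -0.11 ± 0.0318 (adjusted p = 0.00808, edgeR). Sars1 was at 198, 192 and 209 CPM in siPUM2, against 215, 215 and 211 CPM in NC, a log2 fold change of -0.10 ± 0.0290 (adjusted p = 0.0133, edgeR). The groups were separate by narrow margins in both. The call for Mars1 was lost without siPUM2 1 (adjusted p = 0.0737) or NC 3 (0.0610), and that for Sars1 without siPUM2 2 (0.133) or NC 2 (0.0501), by edgeR. In the RefSeq annotation Mars1 overlaps Ddit3, Yars1 overlaps S100pbp, Aars1 overlaps Ddx19b and Aimp2 overlaps Eif2ak1, and the strand setting of the counting is not given in the sources used here, so reads of the overlaps could be shared.

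The remaining 9 cytosolic enzymes were not called. Wars1, the tryptophan enzyme, was at 90.7, 86.4 and 90.5 CPM in siPUM2, against 93.0, 94.0 and 94.4 CPM in NC; its groups did not overlap but its adjusted p was 0.0787 (edgeR, log2 fold change -0.07). For Qars1 (glutamine) the log2 fold change was -0.06 with an interval of -0.13 to -0.004 that left out 0 before adjustment (adjusted p = 0.107, edgeR), and its groups overlapped; it was called lower without NC 3. The enzymes of leucine (Lars1, -0.04), asparagine (Nars1, -0.03), arginine (Rars1, -0.01), alanine (Aars1, 0.01), histidine (Hars1, 0.02) and isoleucine (Iars1, 0.04) had overlapping groups. Their 95% intervals had a lower bound between -0.10 (Lars1) and -0.03 (Iars1) and an upper bound between 0.03 (Nars1) and 0.12 (Iars1). Aars1, the most abundant of them in reads, was at 328, 327 and 337 CPM in siPUM2, against 322, 327 and 333 CPM in NC.

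All siPUM2 values were below all NC values in 11 of the 19 cytosolic enzymes, where the same held for 19.2% of all genes tested and for 24.3% of those in their CPM range. Summed over the 19, the level was 2528, 2545 and 2626 CPM in siPUM2 1, 2 and 3, against 2716, 2721 and 2745 CPM in NC 1, 2 and 3. Within siPUM2, library 3 had the highest value in 9 of the 10 genes that fell. Without siPUM2 3 the same 10 genes were called.

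**Figure D2:**
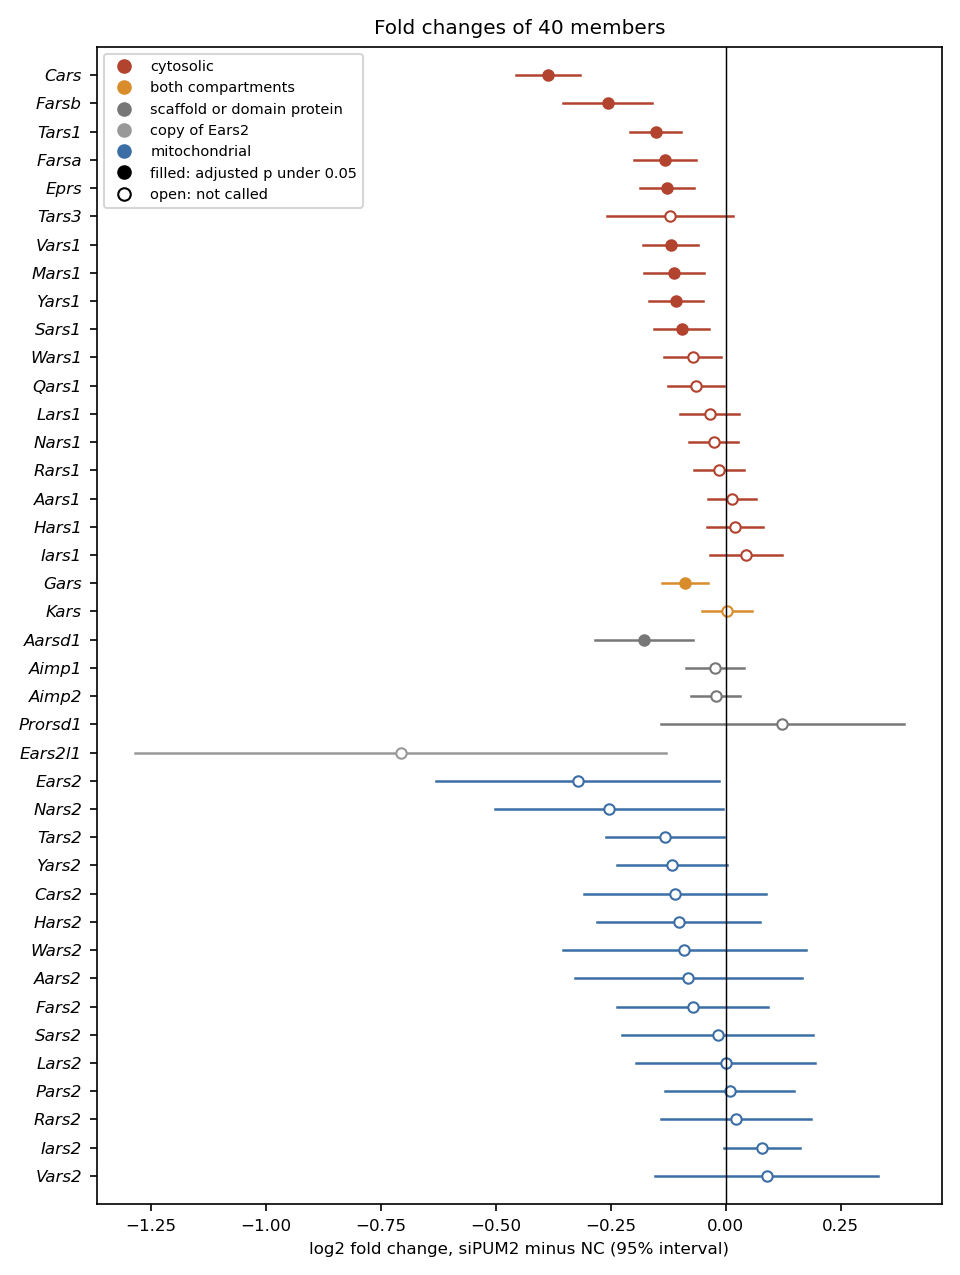
Log2 fold change (siPUM2 minus NC) of 40 members with 95% intervals from the edgeR fit, coloured by class; filled points passed an adjusted p of 0.05. Cytosolic enzymes run from -0.39 (Cars) to 0.04 (Iars1) with short intervals, and the mitochondrial enzymes shown from -0.32 (Ears2) to 0.09 (Vars2) with longer ones.

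Of the 2 genes that serve both compartments, the glycine enzyme fell slightly and the lysine enzyme did not pass. Gars was at 284, 282 and 285 CPM in siPUM2, against 299.7, 302 and 303 CPM in NC, with no overlap (log2 fold change -0.09 ± 0.0247, adjusted p = 0.00726, edgeR). Kars was at 187, 191 and 183 CPM in siPUM2, against 188, 184 and 188 CPM in NC. The groups overlapped for Kars, and its interval was -0.05 to 0.06. Among the authors' FPKM values of these 42 genes, Gars, at 102 FPKM in siPUM2 and 109 FPKM in NC, came second to Aimp2.

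Genes known from background as ATF4-responsive and genes of the multisynthetase complex each held members that fell and members that were not called. Of 12 ATF4-responsive synthetases 7 fell (Cars, Tars1, Eprs, Yars1, Gars, Mars1 and Sars1) and none rose, while Wars1, Lars1, Nars1, Iars1 and Aars1 were not called. That was 58.3% called lower, against 13.3% of all genes tested and 18.2% of those in the CPM range of the cytosolic enzymes. Farsb, Farsa and Vars1 fell too and are outside that list. Of the 11 genes of the complex 3 fell (27.3%), Eprs and Mars1 among them, against 13.3% of all genes and 18.2% of those in the cytosolic CPM range. The median log2 fold change of the complex was -0.04. Its scaffold genes were not called: Aimp1 was at 96.1, 98.4 and 99.2 CPM in siPUM2, against 97.1, 103 and 98.5 CPM in NC (log2 fold change -0.02), Aimp2 at 159, 161 and 162 CPM in siPUM2, against 165, 164 and 161 CPM in NC (-0.02), and Eef1e1 had -0.04. For all 3 the adjusted p was between 0.584 and 0.625 (edgeR).

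Per length, Aimp2 was the highest of the 42 genes, at 119 FPKM in siPUM2 and 122 FPKM in NC. Within the complex the levels ran down from Aimp2 through Aimp1 (82.2 FPKM in siPUM2 and 83.7 FPKM in NC) and Kars (74.4 FPKM in both) to Iars1 (12.9 FPKM in siPUM2 and 12.5 FPKM in NC).

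Aarsd1 and Prorsd1 share domains with the alanine and proline enzymes, and Aarsd1 is known as an editing protein that clears mischarged alanine transfer RNA. Aarsd1 was at 43.6, 39.8 and 44.3 CPM in siPUM2, against 47.0, 47.8 and 49.7 CPM in NC, with no overlap (log2 fold change -0.18 ± 0.0519, adjusted p = 0.00994, edgeR). That call was lost without siPUM2 2 (adjusted p = 0.0851, edgeR) or NC 3 (0.0584). Prorsd1 was at 4.80, 6.34 and 5.67 CPM in siPUM2, against 5.91, 4.87 and 4.70 CPM in NC, and the groups overlapped (log2 fold change 0.12, adjusted p = 0.526, edgeR).

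Mitochondrial synthetases were expressed at lower levels, and 1 of 16 was called. In authors' FPKM, averaged over all 6 libraries, the 16 mitochondrial enzymes ran from 0.805 (Wars2) to 17.9 (Iars2) with a median of 1.52, and the 19 cytosolic enzymes from 4.06 (Tars3) to 94.5 (Sars1) with a median of 34.3. Of the mitochondrial enzymes 0 were called lower and 1 was called higher, where 11.1% of the 7361 genes within their CPM range were called lower and 14.5% higher. At an unadjusted p under 0.05 there were 4 of the 16, a smaller share than the 4977 of 12985 over all genes, and DESeq2 called 0 lower and 0 higher. The number called higher was 0 without siPUM2 1, siPUM2 2, NC 2 or NC 3 and 2 without NC 1. Their median log2 fold change was -0.08, with 10 below 0 and 6 above. The median SE was 0.0908 for a mitochondrial enzyme and 0.0300 for a cytosolic one, so a change of the size seen for most cytosolic enzymes was not detectable for most mitochondrial ones with these errors. A difference between the classes was not tested.

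The values of the mitochondrial enzymes scattered on both sides. Ears2, for glutamate, was at 2.78, 3.21 and 2.85 CPM in siPUM2, against 3.29, 3.98 and 3.75 CPM in NC; the groups did not overlap, and the log2 fold change of -0.32 ± 0.150 missed the threshold (adjusted p = 0.113, edgeR). Ears2l1, annotated as a copy of Ears2, had 21, 32 and 17 counts in siPUM2, against 31, 49 and 40 counts in NC (-0.71 ± 0.282, adjusted p = 0.0610, edgeR; -1.02 and 0.0221 without siPUM2 2). Reads of near-identical copies can be split by the counting. How alike Ears2 and Ears2l1 are in sequence was not examined, so whether they share reads is not known and their values stay uncertain.

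Nars2, for asparagine, was at 4.70, 5.11 and 6.46 CPM in siPUM2, against 6.37, 6.23 and 6.82 CPM in NC. Library siPUM2 3 reached into the NC range, and the log2 fold change of -0.25 (adjusted p = 0.122, edgeR) became -0.40 (0.0164) without it. Tars2, for threonine, was at 26.8, 30.2 and 28.2 CPM in siPUM2, against 28.6, 33.4 and 31.3 CPM in NC (-0.13, adjusted p = 0.120, edgeR). It passed without NC 1 (-0.19, 0.0278), which held the lowest NC value.

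Yars2, for tyrosine, was at 21.3, 22.3 and 21.5 CPM in siPUM2, against 23.1, 24.4 and 23.0 CPM in NC, with no overlap (log2 fold change -0.12, adjusted p = 0.140, edgeR). Iars2, for isoleucine, was at 69.6, 68.1 and 68.9 CPM in siPUM2, against 69.4, 63.7 and 62.5 CPM in NC (0.08, adjusted p = 0.146, edgeR; 0.12 and 0.0475 without NC 1). The groups of Iars2 overlapped through NC 1.

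Hars2, for histidine, was at 11.1, 10.2 and 9.68 CPM in siPUM2, against 10.1, 11.3 and 11.8 CPM in NC, and Cars2, for cysteine, at 8.40, 7.20 and 8.21 CPM in siPUM2, against 8.70, 9.01 and 8.02 CPM in NC. Both overlapped, with log2 fold changes of -0.10 and -0.11. Another 8 mitochondrial enzymes, also overlapping, lay between -0.09 (Wars2) and 0.09 (Vars2), with Aars2 at -0.08, Fars2 at -0.07, Sars2 at -0.02, Lars2 at 0.00, Pars2 at 0.01 and Rars2 at 0.02. Among these 8 the widest interval was -0.35 to 0.17 (Wars2) and the narrowest -0.13 to 0.15 (Pars2). Summed over the 16 enzymes, the level was 232, 234 and 232 CPM in siPUM2, against 236, 237 and 232 CPM in NC, and these sums overlapped.

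**Figure D3:**
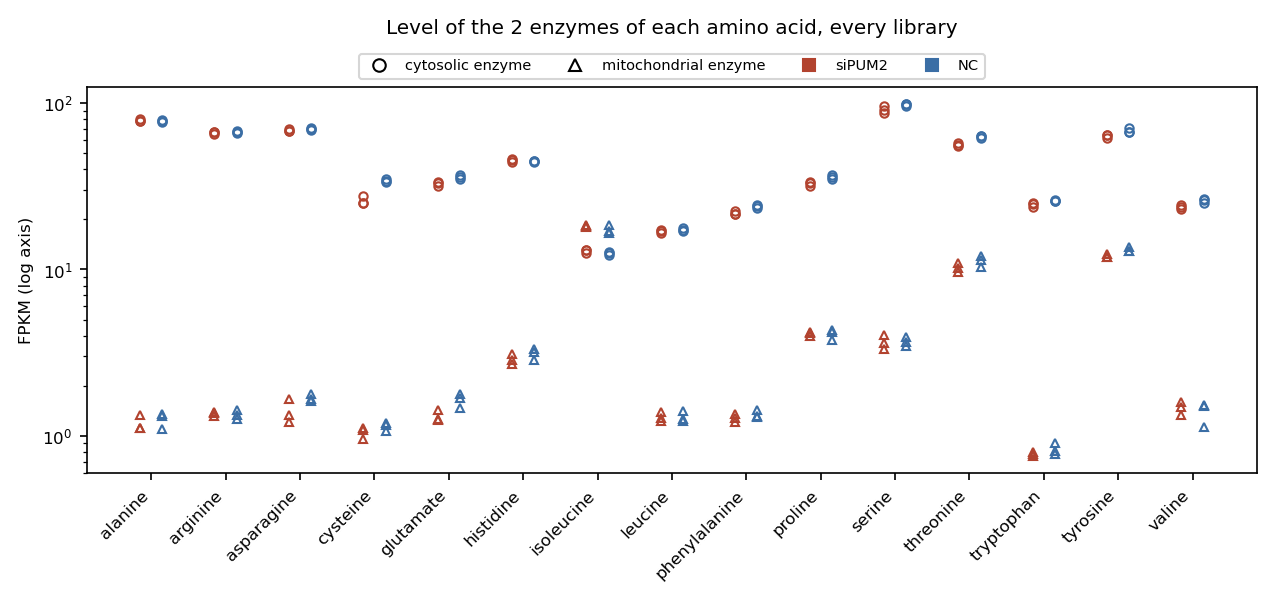
Authors' FPKM (log axis) of the cytosolic (circles) and mitochondrial (triangles) enzyme of 15 amino acids in every library of siPUM2 and NC; Farsa stands for the cytosolic phenylalanine enzyme and Eprs for both glutamate and proline. The cytosolic enzyme is the higher in each case but isoleucine, where Iars2 averages 17.9 FPKM and Iars1 12.7 FPKM.

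The level of the cytosolic enzyme was above that of its mitochondrial counterpart for 15 of the 16 amino acids with both. The ratio of cytosolic to mitochondrial FPKM ran up to 62.5 in NC, for alanine. For isoleucine the mitochondrial enzyme was higher, at 18.3 FPKM in siPUM2 and 17.4 FPKM in NC, with Iars1 at 12.9 FPKM in siPUM2 and 12.5 FPKM in NC.

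Within a library, the ratio of the mitochondrial to the cytosolic enzyme does not depend on the scaling. The log2 ratio of Cars2 to Cars, in CPM, was -3.50, -3.72 and -3.68 in siPUM2, against -3.92, -3.82 and -3.99 in NC, a difference of 0.28. It was higher in each siPUM2 library than in each NC library. For Nars2 to Nars1 the log2 ratio was -5.45, -5.33 and -5.03 in siPUM2, against -5.05, -5.10 and -4.93 in NC, and the groups overlapped (difference -0.24). These were among the 3 largest differences of 16 pairs. The log2 ratio of Pars2 to Eprs was also separate, between -3.80 and -3.77 in siPUM2, against -4.00 to -3.88 in NC (difference 0.14). A two-sided exact permutation test gave p = 0.1 for the pairs of cysteine and proline and 0.3 for that of asparagine; 0.1 is the smallest p that 3 libraries against 3 allow, and the adjusted values over the 16 pairs were 0.533 for cysteine and proline and 0.686 for asparagine.

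**Figure D4:**
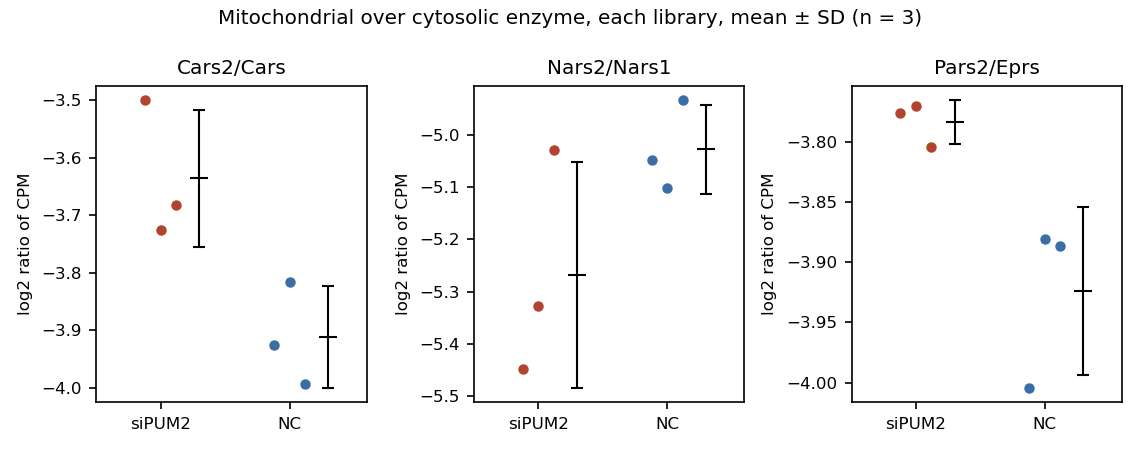
Log2 ratio of CPM of the mitochondrial over the cytosolic enzyme for cysteine, asparagine and proline, by library in siPUM2 and NC, with mean ± SD (n = 3 each). The ratios are separate for cysteine (difference 0.28) and proline (0.14) and overlap for asparagine (-0.24).

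Of 31 other genes that ATF4 and amino acid shortage are known to induce, 12 fell, 3 rose and 16 did not pass, against 13.3% of all genes called lower and 15.1% higher, with a median log2 fold change of -0.10. Their median level was 62.0 CPM, against 23.5 CPM over all genes tested. Slc7a11, the cystine importer, was at 7.30, 7.28 and 11.7 CPM in siPUM2, against 20.3, 18.7 and 20.2 CPM in NC (-1.17 ± 0.108, adjusted p = 2.12e-09, edgeR). Cth, which makes cysteine from cystathionine, was at 81.9, 83.8 and 81.9 CPM in siPUM2, against 97.0, 105 and 101 CPM in NC (-0.29 ± 0.0324, adjusted p = 5.49e-08, edgeR). Psat1, of serine synthesis, averaged 125 ± 5.51 CPM in siPUM2 and 149 ± 4.78 CPM in NC (-0.26), and Vldlr, a lipoprotein receptor, rose to 184 ± 2.39 CPM in siPUM2, against 153 ± 7.86 CPM in NC (0.27; SD, n = 3 each). Atf4 itself and Asns, a classic target, named for their roles and not by the rule, were not called, at log2 fold changes of -0.05 (adjusted p = 0.170, edgeR) and -0.12 (0.134). Without siPUM2 3, 23 of the 31 genes were called in place of 15.

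**Figure D5:**
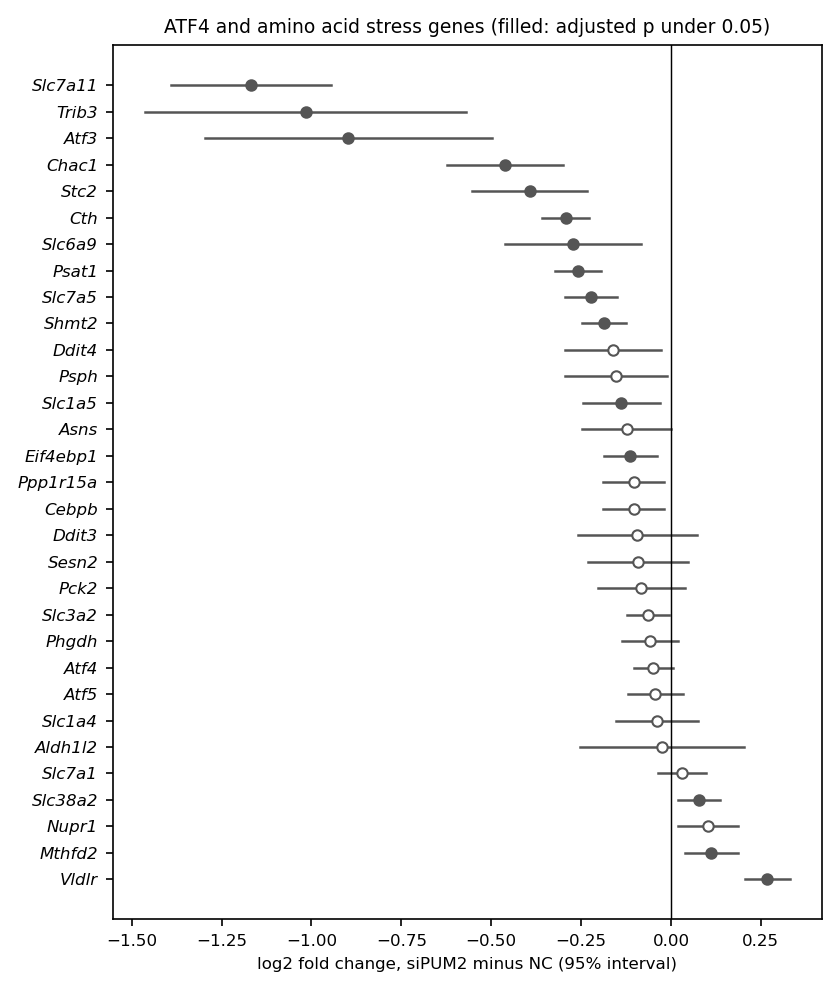
Log2 fold change (siPUM2 minus NC) of 31 ATF4 and amino acid stress genes with 95% intervals from the edgeR fit; filled points passed an adjusted p of 0.05. Values run from -1.17 (Slc7a11) to 0.27 (Vldlr), and 12 filled points lie left of 0 and 3 right of it.

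Of 16 genes of eIF2 kinases and amino acid sensing 4 fell (25%, against 13.3% of all genes tested), 1 rose (6.25%, against 15.1%) and 11 did not pass. All 16 lay within the CPM range of the cytosolic enzymes, where 18.2% of genes were called lower and 20.5% higher. Gcn1, which activates GCN2 on ribosomes, averaged 118 ± 2.31 CPM in siPUM2 and 133 ± 2.21 CPM in NC (SD, n = 3 each; log2 fold change -0.17, adjusted p = 2.86e-05, edgeR), while Eif2ak4, encoding GCN2, had -0.02 and was not called. Impact, an inhibitor of GCN2 activation, rose (0.13), and the initiation factors Eif2s1 (-0.11) and Eif2b5 (-0.13) fell. The calls for Impact, Eif2s1 and Eif2b5 were each lost without siPUM2 1 (adjusted p = 0.260, 0.0594 and 0.125, edgeR), and the log2 fold change of Impact was then 0.07. Either without siPUM2 1 or without NC 3, 3 of the 16 genes were called. Impact also lost its call without NC 2 (0.106) or NC 3 (0.0790), and Eif2b5 without siPUM2 2 (0.0901), NC 1 (0.197) or NC 3 (0.0572).

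Charged transfer RNA is carried to the ribosome by elongation factor 1A in the cytosol and by TUFM in mitochondria. Of 15 tested genes of cytosolic delivery and elongation 4 fell (26.7%, against 13.3% of all genes tested), 2 rose (13.3%, against 15.1%) and 9 did not pass. The median level of these genes was 90.5 CPM, against 23.5 CPM over all genes tested, and calls are easier to make at higher levels. Eef1a1 averaged 3869 ± 8.68 CPM in siPUM2 and 4121 ± 21.2 CPM in NC (SD, n = 3 each; log2 fold change -0.09, adjusted p = 0.00392, edgeR), and Eif5a 1026 ± 10.9 CPM in siPUM2 and 1132 ± 10.3 CPM in NC (-0.14). Eef2k, the kinase that inhibits elongation factor 2, rose (0.31, adjusted p = 0.000539, edgeR), as did Eif5a2 (0.22), whose call was lost without siPUM2 1 (adjusted p = 0.0901, edgeR) or siPUM2 2 (0.0512).

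Of 23 genes of mitochondrial charging and translation 2 fell and 2 rose, 8.7% each way and below the 13.3% and 15.1% of all genes tested, and 19 did not pass. Their median level was 16.2 CPM, against 23.5 CPM over all genes tested. Lrpprc, which stabilises mitochondrial messages, averaged 107 ± 2.36 CPM in siPUM2 and 121 ± 1.09 CPM in NC (SD, n = 3 each; log2 fold change -0.18, adjusted p = 2.01e-05, edgeR). Tufm (-0.07) fell, and Hsd17b10 (0.13), a subunit of mitochondrial RNase P, and Gtpbp3 (0.34), which modifies transfer RNA, rose. The number called was 1 without siPUM2 2, NC 2 or NC 3 and 2 without siPUM2 1. Tufm was not called without siPUM2 1, siPUM2 2 or any 1 NC library (adjusted p = 0.0571 to 0.141, edgeR). Gtpbp3 lost its call without siPUM2 1, siPUM2 2, NC 2 or NC 3 (0.0814 to 0.109), and Hsd17b10 without siPUM2 2, siPUM2 3, NC 2 or NC 3 (0.0646 to 0.194), with a log2 fold change of 0.08 without NC 3.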

How the data were processed

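Per the labels' protocols, polyadenylated RNA of H9C2 cells was captured on beads and made into strand-specific, paired-end Illumina libraries, 3 per group by title. The aligner HISAT2, DESeq2 and build mRatBN7.2 appear in the submitters' processing notes. Not given in the sources used here are tool versions, the annotation, the counter and its strand setting. The authors deposited raw counts for each gene and, for most of the same genes, FPKM values with 2 decimals, per the file headers and values. FPKM serves here for levels between genes and as an alternative.

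The counts were tested with edgeR 4.0.16 in R 4.3.3 (quasi-likelihood, TMM factors 0.995 to 1.003, filterByExpr, group as the only term). The filter left 12985 genes and removed 6840, with 0.0465% of the counts. P-values were adjusted over all genes tested and called under 0.05. The SE comes from the quasi-likelihood F statistic and intervals are at 95%. The biological coefficient of variation was 3.47%. The fit was tested on simulated data. Between libraries of 1 group, the chi-square of the counts was 2.07 to 3.83 per degree of freedom, so no library was a second copy of another.

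The members and lists were chosen with earlier results of these data known. In each class the 8 members with the lowest p are named with values, as is Pum2. So are the 4 with the lowest p in each of 4 pathway lists. The per-library values of Mars1, Sars1, Wars1, Aars1 and Tars3 were added after their values were seen. So were Atf4, Asns, Chac1, Atf3, Trib3 and Eif2ak4, and the Pars2 pair. Promoters came from RefSeq (GRCr8), a different assembly from that of the counts. Alternatives were RLE and no scaling, DESeq2 1.42.0, limma 3.58.1 (voom, and log2 FPKM with a pseudocount of 1 or 0.1), 2 other filters, an adjusted p of 0.01, the replicate number as a block and each library left out in turn. Some results are counted in the classes but not reported here one by one.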

Additional observations from a re-analysis of the deposited data

How the results depend on the processing

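The count of cytosolic synthetases called lower was 8 to 10 under all alternatives run and the count called higher was 0: Mars1 and Sars1 were lost on both FPKM scales, and Sars1 at an adjusted p of 0.01, while without NC 3 Qars1 was gained and Mars1 lost. Their median log2 fold change ranged from -0.12 to -0.09. Over all genes, 2486 to 3732 were called, and the scalings moved the median of all genes by less than 0.003. Same-numbered siPUM2 and NC libraries deviated together by correlations of 0.0238, 0.0258 and 0.00373, so the numbers were not taken as pairs; with the number as a replicate block 3731 genes and the same 10 cytosolic enzymes were called, the call for Tufm was lost (adjusted p = 0.07, edgeR) and that for Ears2l1 gained (0.049). Ears2l1 was also called lower by limma voom (adjusted p = 0.0485) and by edgeR with no filter (adjusted p = 0.0472). For the mitochondrial enzymes, 0 were called higher with DESeq2 and at an adjusted p of 0.01, 1 was called lower on log2(FPKM + 1) (Ears2), and their median on that scale was -0.04153. Leaving out each library in turn gave 0 to 2 called higher, 0 to 1 called lower and a median of -0.06275 to -0.04646. Kars turned to -0.000677 on log2(FPKM + 1) and -0.0006872 on log2(FPKM + 0.1), and ran from -0.01256 to 0.01464 with single libraries left out. Single libraries left out gave 11 to 23 called ATF4 and amino acid stress genes, 3 to 5 called genes of eIF2 kinases and sensing and 1 to 3 of mitochondrial translation. Of the eIF2 and sensing genes 3 were called on each FPKM scale and 2 at an adjusted p of 0.01. At that threshold 3 elongation genes and 1 gene of mitochondrial translation were called, and 2 of the last with DESeq2. A stricter threshold leaves fewer calls by construction; the cause of the other shifts was not tested. The median standard error of the log2 fold change was 0.0908 for a mitochondrial enzyme and 0.0300 for a cytosolic one, which limits what could be detected for most of the first.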
